A study of Mus musculus with 8 samples.

Results

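The p53 target genes described here are 35 genes of the p53 pathway, taken by symbol from a table of normalized counts for 27249 mouse genes. All 35 were found in the table, and all 35 entered the test, which covered 22575 genes with at least 1 normalized count in at least 2 libraries. They fall into 6 regulators of p53 (Trp53, Mdm2, Mdm4, Ppm1d, Ccng1 and Cdkn2a), 6 genes of cell cycle arrest (Cdkn1a, Cdkn2b, Btg2, Gadd45a, Plk2 and Plk3), 14 of apoptosis (Pmaip1, Bbc3, Bax, Apaf1, Aen, Fas, Tnfrsf10b, Eda2r, Pidd1, Perp, Ei24, Trp53inp1, Phlda3 and Zmat3), 5 of DNA repair (Ddb2, Xpc, Ercc5, Polk and Rrm2b) and 4 of metabolism and secretion (Sesn1, Tigar, Dcxr and Gdf15). Not every gene of the set is a classical target. Cdkn2a encodes p19Arf, which acts upstream of p53 by inhibiting Mdm2, and p16Ink4a, which does not, and reads of both transcripts are summed here. Cdkn2b encodes p15Ink4b, an inhibitor of Cdk4 and Cdk6 that is best known as a TGF-beta target.

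The study sequenced polyA RNA of cultured primary vascular smooth muscle cells of the mouse, which form the contractile layer of arteries, in 8 libraries that form 4 groups of 2. The cells overexpressed either GFP, a fluorescent protein that served as the control and whose genotype is labelled WT, or THOC5, part of the THO complex, which links transcription with mRNA export. Both kinds of cells received growth medium or osteogenic medium, the latter given in the series design as inorganic phosphate (Pi) for 6 days, a culture model of arterial calcification. All 4 groups therefore carry an overexpressed protein. How the protein was introduced, the age of the mice and whether the 2 libraries of a group came from separate cultures are not stated in the labels, so the p-values reflect only the variation among these libraries, which may be technical. No day is given for the growth libraries, so a difference in time in culture could not be told apart from the medium.

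p53 is a transcription factor that accumulates when DNA is damaged or when ribosome assembly, oxygen or nucleotide supply is disturbed. It switches on inhibitors of the cell cycle, chiefly the kinase inhibitor p21 encoded by Cdkn1a, together with death receptors, pro-apoptotic proteins and repair enzymes. It also switches on its own antagonist Mdm2, the ubiquitin ligase that sends p53 for degradation, so that Mdm2 mRNA is widely used as a readout of p53 activity. Much of p53 control acts on the protein, which RNA sequencing does not measure.

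Thoc5 was read first as a check of the labels, with 458 and 471 normalized counts in the GFP growth libraries, 650 and 615 in GFP osteogenic, 2155 and 1406 in THOC5 growth and 1780 and 1937 in THOC5 osteogenic libraries. Every THOC5 library thus lay above every GFP library. Depth ranged from 7058681 to 10581042 reads per library. The kit named in the labels does not mark strand, so reads of genes that overlap an exon of Cdkn1a, Gadd45a, Plk3, Ei24, Ddb2, Rrm2b or Tigar on the other strand cannot be separated from theirs. Bax shares exon bases with a gene on its own strand, Gm45808, which strand would not separate. How shared reads were counted is not stated. The 2 GFP osteogenic libraries stood apart from the other 6: over 13253 genes with a mean of at least 10 normalized counts, the median absolute log2 difference was 0.295 to 0.384 between one of them and another library, 0.151 between both, and 0.11 to 0.163 among the other 6. Of 8 smooth muscle markers, all 8 had reads in every library, Acta2 being the most abundant and Des and Myocd being low, and their summed level was 24500 to 28390 normalized counts in GFP growth, 11920 to 13800 in GFP osteogenic, 30390 to 31010 in THOC5 growth and 25000 to 26850 in THOC5 osteogenic libraries. Des and Myocd were not lower in the GFP osteogenic libraries, at 26.0 and 18.8 and at 16.4 and 15.2 normalized counts against 9.32 and 10.6 and 10.5 and 14.6 in GFP growth libraries. The 6 fibroblast markers (Pdgfra, Dpt, Lum, Dcn, Pi16 and Cd34) summed to 14700 to 17070, 4719 to 6581, 18590 to 19340 and 15210 to 16480 in the same order, with Dpt and Pi16 at under 10 reads in every library and Cd34 at 10.5 and 23.9 in GFP growth and 15.6 and 17.0 in GFP osteogenic libraries. The 7 macrophage markers summed to 946.5 to 1182, 679.8 to 695.4, 1051 to 1230 and 961.4 to 1139, while Cd68, also a lysosomal gene of other cells, rose in GFP cells from 166.6 and 164.8 to 245.6 and 244.2 (limma adjusted p = 0.00729) against the direction of the sum, and the macrophage-defining Ptprc, Adgre1 and Itgam stood at 0 to 1.88 in every library. Of 6 endothelial markers 5 were in the table, with a sum of 75.8 to 116.5, 37.6 to 56.2, 91.7 to 120.7 and 84.5 to 87.2, and Erg stood at 0 to 0.955. The fall of this sum in GFP cells came from Vwf, at 99.1 and 58.5 in growth against 12.1 and 9.84 in osteogenic medium. Kdr went the other way, from 9.32 and 9.31 to 25.1 and 20.6, and so did Tek, from 1.17 and 2.66 to 8.65 and 2.68, neither being called. Pecam1 overlapped. The part of such shifts between cell types in the results below was not tested, and in bulk RNA fewer cells of a type and less RNA per cell cannot be told apart.

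A p53 response element is made of 2 half-sites, each a run of purines, a C, an A or T, an A or T, a G and a run of pyrimidines. The sequences below are shown because several of the genes that rose carry such letters in the window around a RefSeq start. RefSeq promoter windows on GRCm38.p6, from 250 bases before to 50 after a gene's start, were matched for 27 of the 35 members by symbol, and those of Pmaip1, Tnfrsf10b, Trp53inp1, Perp, Zmat3, Ddb2, Xpc and Rrm2b were not used here. The half-site was searched without mismatches, and since it is its own reverse complement one search covers both strands. It occurred in the windows of 11 of the 27 members (40.7%) and of 2582 of all 27025 genes with a window (9.55%). A full site, with both half-sites without a mismatch and a spacer of at most 13 bases, occurred in 1 member, Cdkn1a, and in 0.074% of all genes. The half-sites are printed in capitals, 5′ to 3′ on the gene's strand, each with 10 flanking bases on either side, except for Cdkn1a, whose 2 half-sites and their 12-base spacer are shown.
Cdkn1a (chr17:29090906-29090937, plus strand): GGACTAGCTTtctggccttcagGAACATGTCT
Mdm2 (chr10:117710925-117710954, minus strand): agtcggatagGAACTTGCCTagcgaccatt
Trp53 (chr11:69580274-69580303, plus strand): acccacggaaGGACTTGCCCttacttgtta
Ccng1 (chr11:40755452-40755481, minus strand): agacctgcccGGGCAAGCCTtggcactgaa
Ppm1d (chr11:85311112-85311141, plus strand): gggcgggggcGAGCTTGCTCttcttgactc
Gadd45a (chr6:67037428-67037457, minus strand): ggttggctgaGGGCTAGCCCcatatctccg
Aen (chr7:78895927-78895956, plus strand): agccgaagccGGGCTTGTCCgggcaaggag
Bax (chr7:45467080-45467109, minus strand): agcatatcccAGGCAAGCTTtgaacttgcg
Ei24 (chr9:36797325-36797354, minus strand): cgtgcggcccGGGCATGCCCagtgtgggcg
Polk (chr13:96519399-96519428, minus strand): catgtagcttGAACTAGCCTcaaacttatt
Sesn1 (chr10:41887256-41887285, plus strand): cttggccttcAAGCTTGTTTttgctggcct
The half-site of Aen begins 10 bases after its RefSeq start, and those of Ei24 and Gadd45a begin 10 and 40 bases before theirs. The site of Cdkn1a begins 73 bases before the start, that of Trp53 75 bases and that of Mdm2 186 bases before it. The windows of Polk and Sesn1 belong to RefSeq starts that lie inside the gene as GENCODE annotates it, downstream of its outermost start. By the same annotation the RefSeq starts and the half-sites of Aen, Ei24 and Gadd45a also lie inside the gene. A match is a description of the letters and not evidence of p53 binding, which was not measured in these libraries.

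In GFP cells, osteogenic medium raised 18 of the 35 genes and lowered 2 at a limma adjusted p under 0.05, against 10.3% of all tested genes higher and 10.6% lower. The members' median log2 change was 0.38, beside 0 over all tested genes. The raised genes came from every group: 4 of 6 regulators, 3 of 6 arrest genes, 8 of 14 apoptosis genes, 2 of 5 repair genes and 1 of 4 metabolic or secreted factors. Mdm4 and Sesn1 fell. The summed level of the 35 genes was 32570 and 34750 normalized counts in growth medium against 51830 and 49210 in osteogenic medium. Per kilobase of exon, Ccng1 (1856 normalized counts per kb), Phlda3 (1241), Cdkn1a (843) and Mdm2 (629) were the most abundant members in GFP cells in growth medium, and Ddb2 (21.4) was the least.

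**Figure D1:**
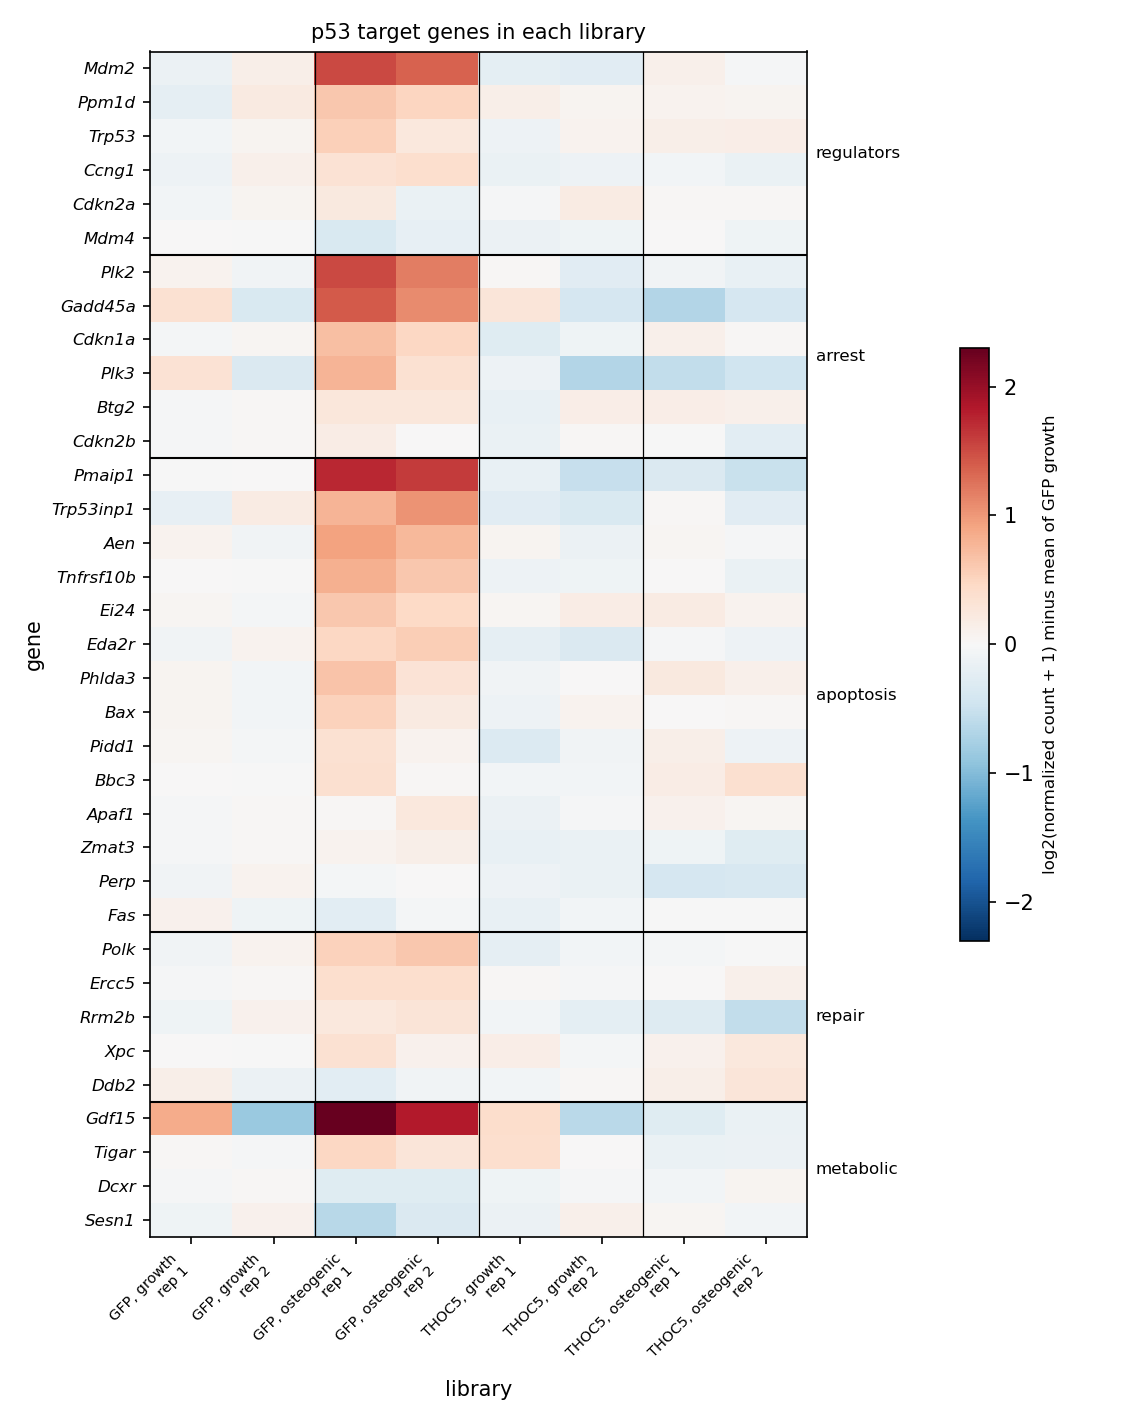
Each cell is a gene's log2(normalized count + 1) in 1 library minus its mean in the 2 GFP growth libraries (colour bar), with the 35 genes in rows by functional group and the 8 libraries in columns. The 2 GFP osteogenic columns hold nearly all of the strong colours, led by Gdf15, Pmaip1, Mdm2 and Plk2, while Sesn1 and Mdm4 are lower there.

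Among the regulators, Mdm2 (chromosome 10, 117688875 to 117710758, GRCm38, minus strand) had 2904 and 3491 normalized counts in GFP growth, 9111 and 8159 in GFP osteogenic, 2712 and 2651 in THOC5 growth and 3443 and 3139 in THOC5 osteogenic libraries. The 2 GFP osteogenic libraries lay far above the other 6, which all fell between 2651 and 3491. Its log2 change in GFP cells was 1.44 ± 0.10 (SE, 2 libraries against 2), a 2.71-fold rise (limma adjusted p = 8.26e-06). Per kilobase this took Mdm2 from 629 to 1699 normalized counts per kb.

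Trp53, which encodes p53 itself (chromosome 11, 69580359 to 69591873), had 1169 and 1269 normalized counts in GFP growth, 1778 and 1435 in GFP osteogenic, 1124 and 1281 in THOC5 growth and 1334 and 1351 in THOC5 osteogenic libraries. The GFP osteogenic pair was the highest, with replicate 1 well above replicate 2, and the rise was 0.39 ± 0.11 (limma adjusted p = 0.0263). Ppm1d, the phosphatase Wip1 that switches damage signalling off, stood at 172.5 and 230 normalized counts in growth medium against 307.9 and 282.6 in osteogenic medium in GFP cells, a rise of 0.56 ± 0.14 (limma adjusted p = 0.0135). Ccng1, the cyclin G1 of the Mdm2 feedback, rose by 0.36 ± 0.10 (adjusted p = 0.0206) from 5969 and 7071 to 8170 and 8526. Mdm4, the Mdm2 partner that blocks p53 transactivation, went the other way, with 3190 and 3142 normalized counts in growth medium against 2474 and 2785 in osteogenic medium. Its libraries did not overlap, and it fell by 0.27 ± 0.09 on the log2 scale (limma adjusted p = 0.0444), a call that ended under 11 of 17 alternative settings. Cdkn2a stood at 115.4 and 126.3 against 141.8 and 108.2, overlapping groups, with a log2 change of 0.04 and a 95% interval of -0.31 to 0.39.

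Among the arrest genes, Cdkn1a, which encodes p21 (chromosome 17, 29090976 to 29100727, plus strand), had 2895 and 3097 normalized counts in GFP growth, 4835 and 4150 in GFP osteogenic, 2479 and 2802 in THOC5 growth and 3260 and 3046 in THOC5 osteogenic libraries. Both GFP osteogenic libraries were above all others, by a log2 change of 0.58 ± 0.10 over growth medium, or 1.5-fold (limma adjusted p = 0.00175). Plk2, a polo-like kinase induced by p53 (chromosome 13, 110395046 to 110400844, plus strand), rose more, from 930 and 837.5 to 2515 and 2002 normalized counts, a log2 change of 1.34 ± 0.12 (adjusted p = 3.39e-05, limma). Gadd45a, a growth arrest and DNA damage protein, had 435.8 and 268.5 normalized counts in GFP growth and 913.3 and 727.2 in GFP osteogenic libraries. The replicates of growth medium were unequal, and the rise of 1.25 ± 0.24 (limma adjusted p = 0.0036) had a wide 95% interval, from 0.72 to 1.78. Plk3 lay at 113 and 71.8 against 155.7 and 115.4 normalized counts, with a log2 change of 0.57 ± 0.25 that did not pass the test (limma adjusted p = 0.145). Btg2, an antiproliferative adaptor of mRNA deadenylation, moved from 906.7 and 942.5 to 1104 and 1114 without passing it (adjusted p = 0.0986). Cdkn2b stood at 156.2 and 163.5 against 179 and 161, which overlap.

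Pmaip1, which encodes the BH3-only protein Noxa, an inhibitor of Mcl-1, had the steepest rise of the apoptosis genes. It had 315.8 and 319 normalized counts in GFP growth, 1059 and 967.8 in GFP osteogenic, 282.9 and 219.7 in THOC5 growth and 251.7 and 221.5 in THOC5 osteogenic libraries. The replicates were close and the GFP osteogenic pair stood alone, with a log2 change of 1.67 ± 0.13, or 3.18-fold (limma adjusted p = 1.11e-05). Puma, the other BH3-only protein of the list, encoded by Bbc3, did not follow: 88.6 and 86.4 normalized counts in growth medium against 113.3 and 89.4 in osteogenic medium gave a log2 change of 0.20, with a 95% interval of -0.16 to 0.56. Bax, which opens the outer mitochondrial membrane, had 536.1 and 491.8 against 744.7 and 591.2 and rose by 0.37 ± 0.12 (limma adjusted p = 0.0481), a call that ended under 10 of 17 alternative settings.

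Of the death receptors, Tnfrsf10b, the TRAIL receptor (chromosome 14, 69767472 to 69784411), had 712 and 701.9 normalized counts in GFP growth, 1244 and 1082 in GFP osteogenic, 653.6 and 661.8 in THOC5 growth and 714.3 and 633.6 in THOC5 osteogenic libraries. The GFP osteogenic pair did not overlap with any other library, and the rise was 0.71 ± 0.10 (limma adjusted p = 0.00041). Eda2r, the ectodysplasin A2 receptor on the X chromosome, rose from 586.2 and 662 to 871.8 and 928.4, or by 0.53 ± 0.10 (limma adjusted p = 0.00244). Fas, the classical death receptor, stood at 334.5 and 292.4 against 264.7 and 301.4, with a 95% interval of -0.39 to 0.10 for its log2 change. Of these 3 receptors, 2 rose and Fas was not called.

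Aen, an apoptosis-enhancing nuclease (chromosome 7, 78895854 to 78911209), had 497.6 and 442.7 normalized counts in GFP growth, 890 and 785.3 in GFP osteogenic, 490.4 and 428.8 in THOC5 growth and 484.3 and 461.8 in THOC5 osteogenic libraries. Both GFP osteogenic libraries exceeded the other 6, and the log2 change was 0.83 ± 0.11 (limma adjusted p = 0.000301). Trp53inp1, a p53-induced nuclear protein, rose from 1961 and 2554 to 3864 and 4585, by 0.91 ± 0.14 (limma adjusted p = 0.000826). Ei24, a membrane protein of the endoplasmic reticulum, and Phlda3, a PH-domain inhibitor of Akt, rose by 0.54 ± 0.10 and 0.49 ± 0.11 (limma adjusted p = 0.00217 and 0.00992). Apaf1, the apoptosome scaffold, Pidd1, the scaffold of the PIDDosome, Perp, a tetraspan membrane protein, and Zmat3, an RNA-binding zinc finger protein, did not pass the test, with log2 changes from -0.01 to 0.21.

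Of the repair genes, Polk, the translesion polymerase kappa, had 510.4 and 574.3 normalized counts in GFP growth and 787 and 827.4 in GFP osteogenic libraries, and Ercc5, the endonuclease XPG, had 632.8 and 654 against 838.1 and 842.6. Neither gene's groups overlapped, and the rises were 0.57 ± 0.10 for Polk and 0.39 ± 0.08 for Ercc5 (limma adjusted p = 0.00148 and 0.00723). The damage recognition genes gave no call: Xpc had 324 and 319 against 408.2 and 345.3 normalized counts, and Ddb2, the least abundant member, 64.1 and 53.2 against 49.3 and 55.4. Rrm2b, the p53-inducible subunit of ribonucleotide reductase, had 287.8 and 331 against 367.6 and 380.1 and missed the threshold (limma adjusted p = 0.146).

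Among metabolic and secreted factors, Gdf15, a stress hormone of the TGF-beta superfamily (chromosome 8, 70629393 to 70632456), had 191.1 and 58.5 normalized counts in GFP growth, 576.9 and 375.7 in GFP osteogenic, 141 and 68.8 in THOC5 growth and 87.2 and 94.8 in THOC5 osteogenic libraries. Its log2 change of 2.13 ± 0.46 was the largest of the 35 but also the least precise, with a 95% interval of 1.12 to 3.13 (limma adjusted p = 0.00675). Replicate 1 exceeded replicate 2 by 1.69, 0.62 and 1.02 log2 units in GFP growth, GFP osteogenic and THOC5 growth libraries, and Gadd45a (0.70, 0.33 and 0.66) and Plk3 (0.65, 0.43 and 0.55) leaned the same way. In THOC5 osteogenic libraries replicate 1 minus replicate 2 was -0.12 for Gdf15, -0.28 for Gadd45a and -0.11 for Plk3. Sesn1, a sestrin that restrains mTORC1, was the other gene that fell, from 261 and 301.8 to 180.8 and 221.8 normalized counts, by 0.48 ± 0.14 on the log2 scale (limma adjusted p = 0.0267). Tigar, a fructose bisphosphatase, stood at 282 and 273.8 against 387.5 and 339 (limma adjusted p = 0.0601), and Dcxr, a dicarbonyl and xylulose reductase, at 511.6 and 527.7 against 430.7 and 430.2 (limma adjusted p = 0.0545). Neither passed the test. Their libraries did not overlap between media, which 2 libraries against 2 can show without any difference.

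**Figure D2:**
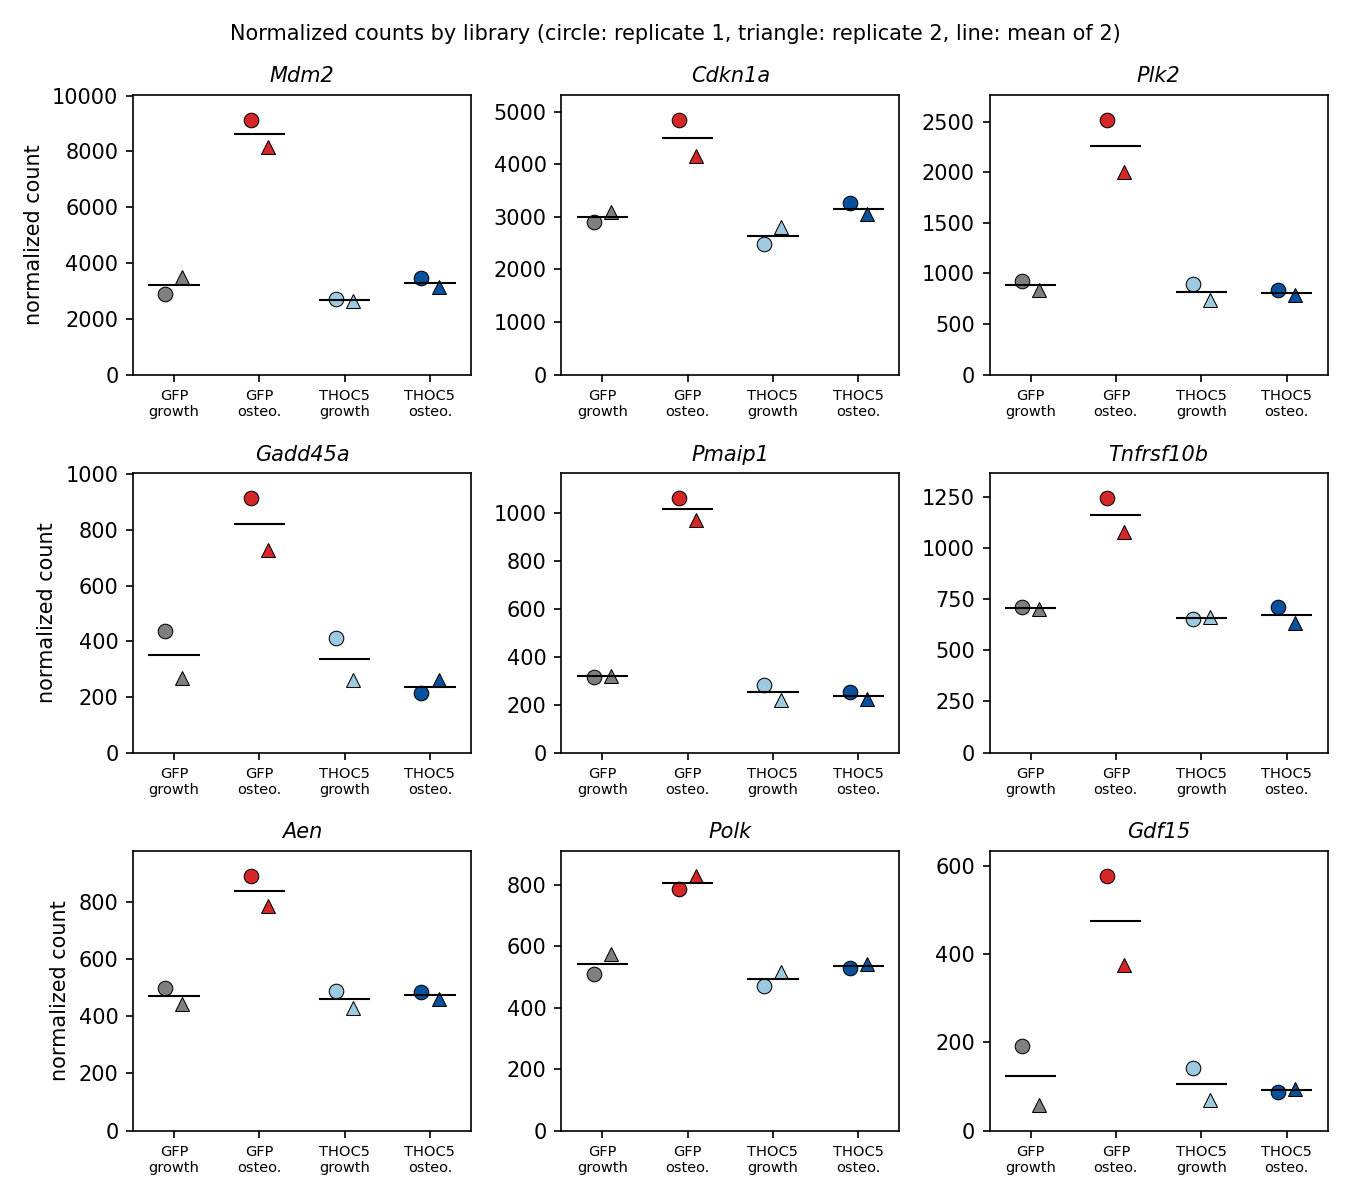
Normalized counts (vertical axes from 0) of 9 members in every library by group, with circles for replicate 1, triangles for replicate 2 and lines for the mean of 2. In each panel both GFP osteogenic libraries lie above all others, with Mdm2 at 9111 and 8159 and Pmaip1 at 1059 and 967.8, and Gdf15 and Gadd45a show the widest spread between replicates in growth medium.

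The 11 members with a half-site in the promoter window comprised 10 that rose and 1 that fell in GFP cells, with a median log2 change of 0.56. Of the 16 with a window and no match, 5 rose and 1 fell, with a median of 0.24. This split is a description of the listed genes, for which no test was made. Cdkn1a, the only one with a full site in its window, rose by 0.58, less than Mdm2 at 1.44. Sequence outside the windows was not searched, so a full site elsewhere in these genes would be missed.

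Of these 20 calls, 11 (Mdm2, Cdkn1a, Plk2, Pmaip1, Aen, Tnfrsf10b, Eda2r, Ei24, Trp53inp1, Ercc5 and Polk) held under all 17 alternative settings. The other 9 (Trp53, Mdm4, Ppm1d, Ccng1, Gadd45a, Bax, Phlda3, Sesn1 and Gdf15) all ended without GFP osteogenic replicate 1. Leaving out GFP osteogenic replicate 2 ended fewer higher calls. Scaling to library totals, which shifts the median of all genes by 0.127, gave 23 higher and 0 lower. With that scaling 3720 of all genes were called higher, against 2314 in the main fit.

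The same medium in THOC5 cells gave no call among the 35 genes: limma called 0 higher and 0 lower, as did edgeR and DESeq2, and 2 were higher and 2 lower at an unadjusted p under 0.05. Of all tested genes 0.532% were called higher and 0.00886% lower, so few calls were made anywhere in this comparison. At an unadjusted p under 0.05, 715 of all 22575 tested genes were higher and 567 lower. The members' median log2 change was 0.04, and their summed level was 30540 and 31120 normalized counts in the growth libraries and 34100 and 31980 in the osteogenic ones. The 2 genes higher at an unadjusted p were Mdm2 and Cdkn1a, the kinase inhibitor p21. Mdm2 went from 2712 and 2651 to 3443 and 3139, a log2 change of 0.29 with a 95% interval of 0.07 to 0.52 (limma adjusted p = 0.731). Cdkn1a went from 2479 and 2802 to 3260 and 3046, a change of 0.26 with an interval of 0.04 to 0.47 (limma adjusted p = 0.811). Neither pair of groups overlapped, which 2 libraries against 2 can show without any difference. A small rise of both genes in THOC5 cells was thus neither shown nor bounded away. For Pmaip1 the interval was -0.36 to 0.20, for Plk2 -0.28 to 0.26, for Aen -0.19 to 0.28 and for Tnfrsf10b -0.18 to 0.24, each wholly below its own interval in GFP cells. The interval for Gdf15 (-1.12 to 0.89) was wide. The 2 lower at an unadjusted p were Rrm2b, at 294.5 and 264.5 against 251.7 and 209.3, and Tigar, at 364 and 280.8 against 249.9 and 251.6.

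Whether the medium response differed between the kinds of cell was tested as the interaction, the response in THOC5 cells minus that in GFP cells. It was lower for 9 of the 35 genes, against 3.92% of all tested genes, and higher for 0, against 5.3%, with a median of -0.32 log2 units beside 0 for all tested genes. The 9 comprised 1 regulator (Mdm2), 2 arrest genes (Plk2 and Gadd45a), 5 apoptosis genes (Pmaip1, Aen, Tnfrsf10b, Trp53inp1 and Ei24), no repair gene and 1 metabolic gene (Tigar). None of the alternatives, edgeR and DESeq2 among them, called a member higher, and 3 were higher at an unadjusted p under 0.05 (Mdm4, Sesn1 and Dcxr). At that unadjusted p 17 members were lower, and of all 22575 tested genes 2752 were higher and 2541 lower. The difference was -1.75 ± 0.18 for Pmaip1 (limma adjusted p = 0.000489), -1.14 ± 0.14 for Mdm2 (adjusted p = 0.00134) and -1.36 ± 0.17 for Plk2 (adjusted p = 0.00138). In GFP cells these genes had risen by 1.67, 1.44 and 1.34.

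Gadd45a, the growth arrest and DNA damage gene, differed by -1.73 ± 0.34 (limma adjusted p = 0.0104), with a fitted value that was positive in GFP cells (1.25) and negative, though not called, in THOC5 cells (-0.48). Aen and Tnfrsf10b differed by -0.79 ± 0.15 and -0.68 ± 0.14 (limma adjusted p = 0.00928 and 0.011). Tigar, the fructose bisphosphatase, differed by -0.73 ± 0.18 (limma adjusted p = 0.0309) although limma called neither response by itself, 0.38 in GFP cells and -0.35 in THOC5 cells. Trp53inp1 and Ei24 were nearer the threshold, at -0.73 and -0.51 (limma adjusted p = 0.0395 and 0.0381). Cdkn1a did not pass: its difference was -0.32, with a 95% interval of -0.63 to -0.02 (limma adjusted p = 0.188). Gdf15 had the largest difference, -2.24 ± 0.65, and did not pass either (limma adjusted p = 0.0539), though it passed under 7 of 16 alternative settings, with adjusted p from 0.00624 to 0.242. For Trp53 the interval was -0.57 to 0.11.

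**Figure D3:**
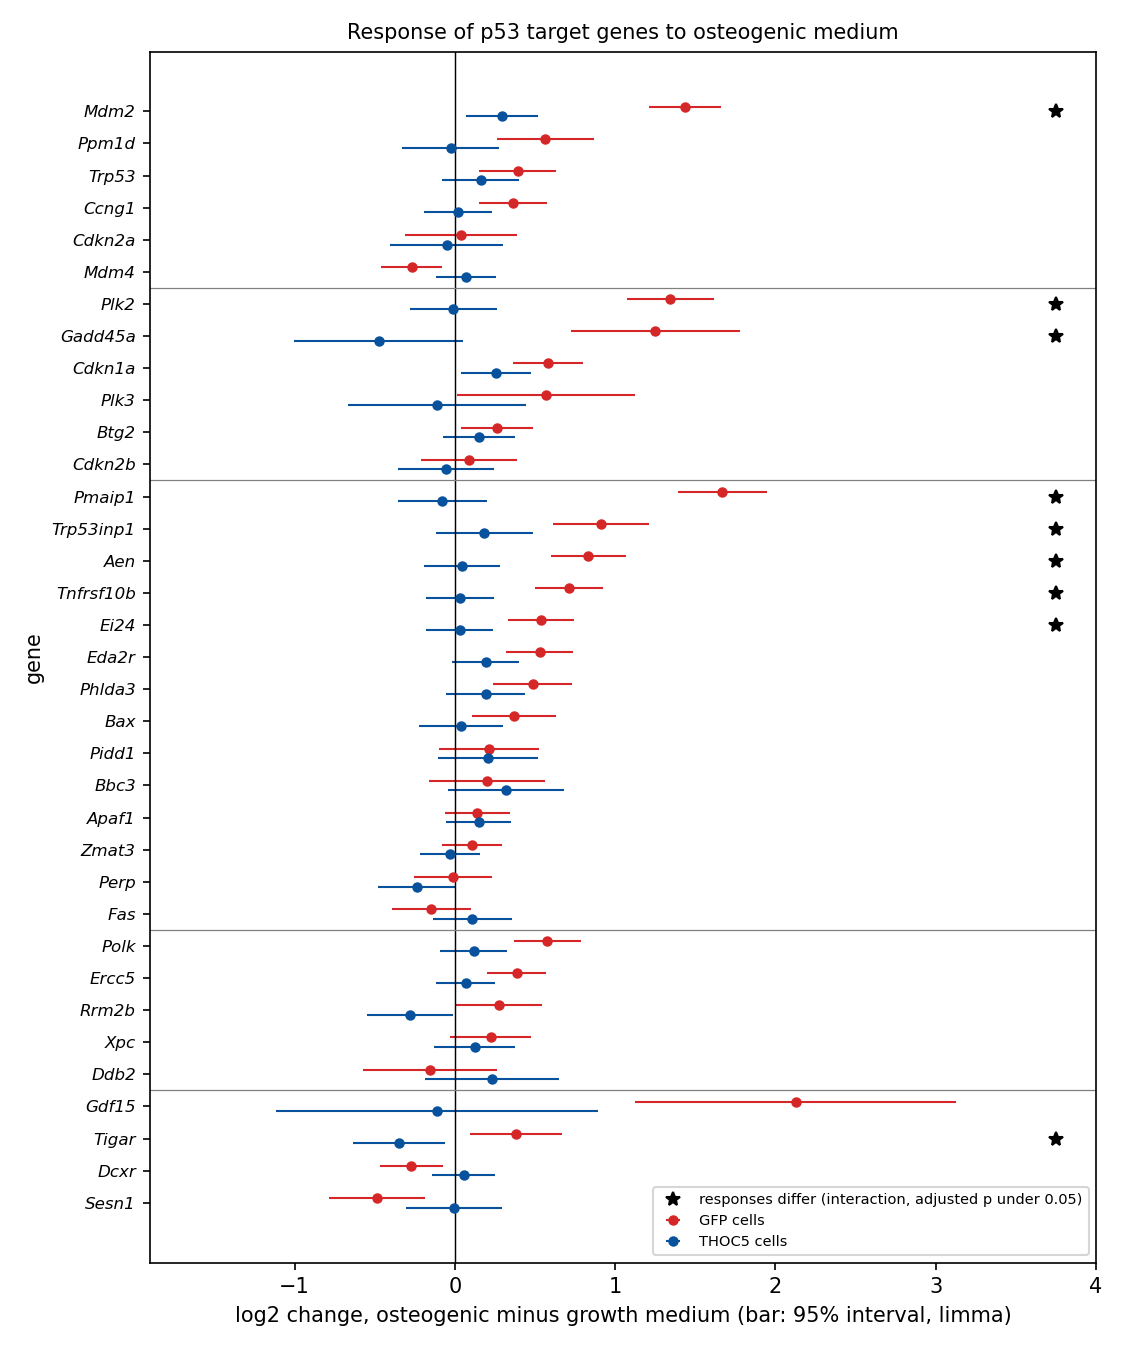
Log2 change from growth to osteogenic medium for the 35 genes in GFP cells (red) and THOC5 cells (blue), with bars for the limma 95% interval (2 libraries against 2) and stars for the 9 genes whose responses differed at an adjusted p under 0.05. The red points of Mdm2 (1.44), Plk2 (1.34) and Pmaip1 (1.67) lie far to the right of the blue ones (0.29, -0.01 and -0.08), while those of Apaf1, Pidd1 and Cdkn2a nearly coincide.

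The calls for Mdm2, Plk2 and Pmaip1 held under all 16 alternative settings. Those of the other 6 ended under some, and 3 calls were left without GFP osteogenic replicate 1, or without THOC5 osteogenic replicate 2, against 8 without GFP osteogenic replicate 2 and 5 without THOC5 growth replicate 1 or THOC5 osteogenic replicate 1.

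In growth medium, THOC5 and GFP cells gave no call among the 35 genes with limma, edgeR or DESeq2, with 0 higher and 4 lower at an unadjusted p under 0.05. Of all tested genes 0.00443% were called higher and 0% lower. At an unadjusted p under 0.05, 561 of all 22575 tested genes were higher and 591 lower. The members' median log2 difference was -0.07. The 4 genes were Mdm2, at 2712 and 2651 in THOC5 cells against 2904 and 3491 in GFP cells, Pmaip1, the Noxa gene, at 282.9 and 219.7 against 315.8 and 319, Eda2r, at 538.7 and 497.6 against 586.2 and 662, and Trp53inp1, at 1857 and 1764 against 1961 and 2554. None of these groups overlapped, which 2 libraries against 2 can show without any difference. The 95% intervals were -0.47 to -0.02 for Mdm2, -0.63 to -0.07 for Pmaip1, -0.48 to -0.06 for Eda2r and -0.61 to -0.01 for Trp53inp1, each with a limma adjusted p of 0.906. Trp53 and Cdkn1a had intervals of -0.26 to 0.22 and -0.40 to 0.03. Both this comparison and the THOC5 response gave 0 calls among the members without the 2 GFP osteogenic libraries, a setting chosen after seeing the data.

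In osteogenic medium, THOC5 cells had lower levels than GFP cells of 20 of the 35 genes and a higher level of 1, Sesn1, against 10.7% of all tested genes lower and 11.3% higher. The median log2 difference was -0.36. This comparison shares its GFP osteogenic libraries with the GFP response above, so that a high value in those libraries enters both, and the values are given side by side without a test of their likeness. The lower genes comprised 3 regulators (Mdm2, Ppm1d and Ccng1), 4 arrest genes (Cdkn1a, Gadd45a, Plk2 and Plk3), 8 apoptosis genes (Pmaip1, Aen, Tnfrsf10b, Eda2r, Perp, Ei24, Trp53inp1 and Zmat3), 3 repair genes (Ercc5, Polk and Rrm2b) and 2 metabolic or secreted factors (Tigar and Gdf15).

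The largest differences were those of Gdf15, at 87.2 and 94.8 normalized counts in THOC5 cells against 576.9 and 375.7 in GFP cells (-2.34 ± 0.46, limma adjusted p = 0.00365), and Pmaip1, at 251.7 and 221.5 against 1059 and 967.8 (-2.10 ± 0.13, adjusted p = 2.8e-06). Gadd45a, at 214.5 and 260 against 913.3 and 727.2, differed by -1.78 ± 0.24 (limma adjusted p = 0.000369). Plk2, at 835.1 and 782.9 against 2515 and 2002, and Mdm2, at 3443 and 3139 against 9111 and 8159, were lower by log2 differences of -1.47 ± 0.12 and -1.39 ± 0.10 (limma adjusted p = 1.79e-05 and 8.84e-06). In all 5 genes the THOC5 libraries lay below a common level that both GFP libraries exceeded. Cdkn1a was lower by a smaller step, -0.51 ± 0.10 (limma adjusted p = 0.00362).

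Several genes passed here that had not passed in the GFP response. Plk3, at 60.9 and 65.7 against 155.7 and 115.4, differed by -1.07 ± 0.25 (limma adjusted p = 0.0104). Rrm2b, the ribonucleotide reductase subunit, at 251.7 and 209.3 against 367.6 and 380.1, differed by -0.70 ± 0.12 (limma adjusted p = 0.00193). Perp, Zmat3 and Tigar differed by -0.36, -0.30 and -0.53 (limma adjusted p = 0.0379, 0.0251 and 0.0128). Conversely Trp53, Bax and Phlda3, called in the GFP response, missed the threshold here, at -0.25, -0.35 and -0.32 (limma adjusted p = 0.138, 0.0581 and 0.0632). Sesn1 was higher in THOC5 cells, at 288.1 and 268.5 against 180.8 and 221.8 (0.47 ± 0.14, limma adjusted p = 0.0289). Bbc3, Cdkn2a, Apaf1, Xpc and Pidd1 had overlapping libraries.

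Of the 21 calls, 10 (Mdm2, Gadd45a, Plk2, Pmaip1, Aen, Tnfrsf10b, Eda2r, Trp53inp1, Polk and Rrm2b) held under all 17 alternative settings. Fewer lower calls were left without GFP osteogenic replicate 1 and without THOC5 osteogenic replicate 2. Scaling to library totals, which shifts the median of all genes by -0.163, gave 23 lower and 0 higher. Over all tested genes the lower calls were 2413 in the main fit and at most 4063 over the alternatives.

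**Figure D4:**
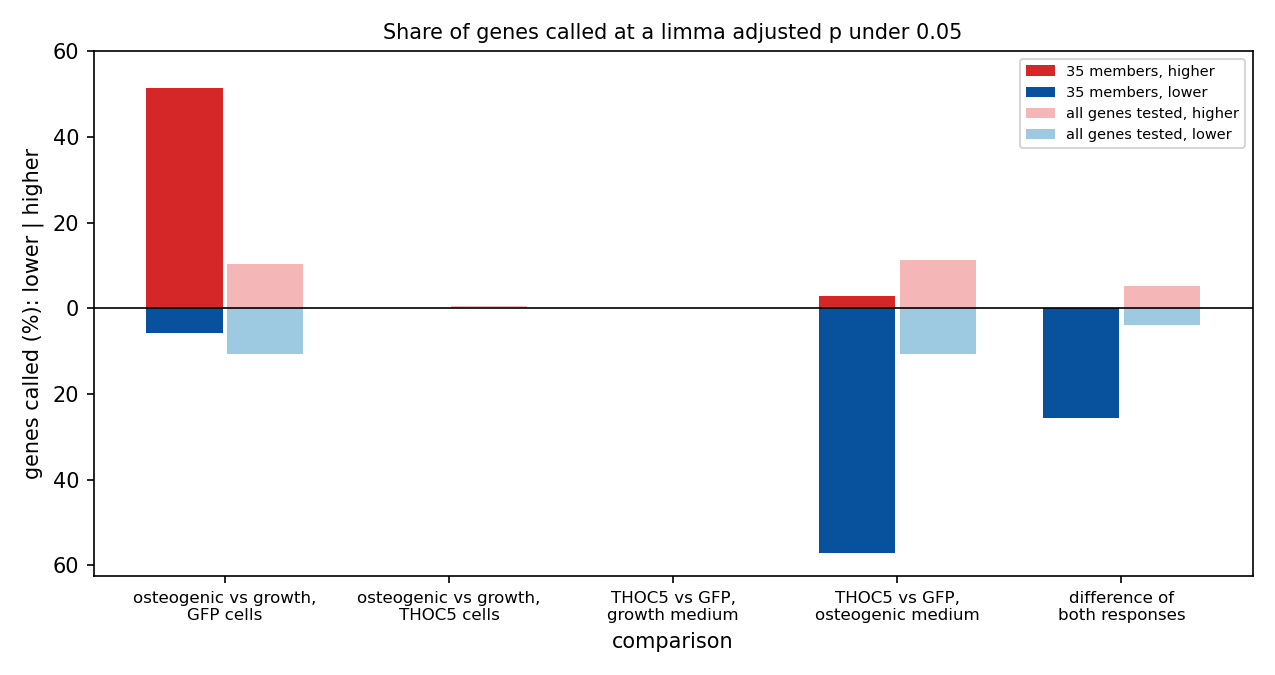
Share of genes (vertical axis, percent) called higher (red, above 0) or lower (blue, below 0) at a limma adjusted p under 0.05 in each of 5 comparisons, in dark colours for the 35 members and in pale colours for all 22575 tested genes. The members reach 51.4% higher in the GFP response against 10.3% of all genes, and 57.1% lower between THOC5 and GFP cells in osteogenic medium against 10.7%, and have no call in the THOC5 response or between THOC5 and GFP cells in growth medium.

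In the authors' deposited table, with its own fold changes and adjusted p-values, 18 of the 35 genes were higher and 2 lower in the GFP response. That table has 0 in either direction in the THOC5 response and for THOC5 against GFP in growth medium, and 1 higher and 20 lower for THOC5 against GFP in osteogenic medium. These 20 are not all the genes that limma called, since Phlda3 is among them and Perp is not. The table comes from the same 8 libraries, so its counts are not independent of those above. Its shares over all genes were not counted.

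Other genes of the pathway were read from further lists. Of 34 additional p53 targets, 13 rose (38.2%, against 10.3% of all tested genes) and 3 fell (8.82%, against 10.6%) in the GFP response, 2 rose and 0 fell in the THOC5 response, and 4 were higher (among them Pml, Thbs1 and Igfbp3) and 4 lower (Zfp365, Trp53i11, Rps27l and Kitl) in the interaction, or 11.8% each way against 5.3% and 3.92% of all tested genes. Zfp365, a guard of genome stability, went from 606 and 643.4 normalized counts in growth medium to 1155 and 1153 in osteogenic medium in GFP cells, and stood at 596.6 and 535.8 and at 650.6 and 620.5 in THOC5 cells in the same media. Its rise in GFP cells was 0.89 ± 0.09 (limma adjusted p = 5.77e-05), and its interaction was -0.72 (limma adjusted p = 0.00601). Trp53i11 rose by 0.80 ± 0.12 (limma adjusted p = 0.00102), and Trp53i11 too passed the interaction test (-0.78, adjusted p = 0.0192).

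Among the genes of this list that fell in GFP cells were Thbs1 and Igfbp3, which encode the secreted proteins thrombospondin 1 and an IGF-binding protein. Thbs1 had 139700 and 146500 normalized counts in growth medium against 49010 and 71270 in osteogenic medium in GFP cells, a fall by 1.28 ± 0.18 on the log2 scale (limma adjusted p = 0.000566), and Igfbp3 fell by 1.28 ± 0.27 (limma adjusted p = 0.00561). The 2 genes of this list that rose in THOC5 cells made up 5.88%, against 0.532% of all tested genes. None fell there, against 0.00886%. Pml, the scaffold of PML nuclear bodies, rose by 0.63 ± 0.09 (limma adjusted p = 0.00806). Tap1, the peptide transporter of antigen presentation, rose by 0.83 ± 0.12 (limma adjusted p = 0.00617). Both are also interferon-responsive genes.

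Upstream of p53, 19 of 20 genes were tested, and 1 rose (5.26%) and 2 fell (10.5%) in the GFP response, shares not above the 10.3% and 10.6% of all tested genes. Daxx, a histone chaperone that binds Mdm2, rose in both kinds of cell, from 355.4 and 364.2 to 518.1 and 551 normalized counts in GFP cells (0.57 ± 0.09, limma adjusted p = 0.00124) and from 285.8 and 304.6 to 507.1 and 516.3 in THOC5 cells (0.79 ± 0.09, limma adjusted p = 0.00154). Crebbp, an acetyltransferase of p53, and Trp63, a paralog of p53, fell by 0.35 and 0.83 in GFP cells (limma adjusted p = 0.013 and 0.0108). Trp73, the other paralog, stood at 0 to 1.33 normalized counts in every library and was not tested. None of the damage kinases Atm, Atr, Chek1, Chek2 and Prkdc was called in the GFP response.

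Of the BCL-2 family outside the members, 10 of 12 genes were tested, with 1 higher and 2 lower in the GFP response, against 10.3% and 10.6% of all tested genes. Bcl2l1, the gene of the survival factor Bcl-xL, rose by 0.33 ± 0.10 (limma adjusted p = 0.0424) while Bok and Bmf, which promote death, fell by 0.47 and 1.07 (limma adjusted p = 0.00402 and 0.0029). Bmf had 171.3 and 132.9 normalized counts in growth medium against 58.0 and 87.7 in osteogenic medium in GFP cells, against 189.2 and 173.8 and 169.9 and 199.9 in THOC5 cells. The other 7, Mcl1 among them, were not called.

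A list of 30 cell cycle genes, many of them repressed through p21 and the DREAM complex when p53 is active, had 6 higher (20%) and 13 lower (43.3%) in the GFP response, against 10.3% and 10.6% of all tested genes, and 0 in either direction in the THOC5 response, where 1 was higher and 0 lower at an unadjusted p under 0.05. Of all 22575 tested genes, 715 were higher and 567 lower in the THOC5 response at that unadjusted p. Cdk1, Bub1, Aurka, Birc5 and Cdc20, which act in mitosis, were not called. Ccnb2, a mitotic cyclin, had 169 and 183.4 normalized counts in growth medium against 97.7 and 96.6 in osteogenic medium in GFP cells (-0.85 ± 0.12, limma adjusted p = 0.000522), against 190.2 and 198.6 and 199.9 and 211.2 in THOC5 cells. Cenpa, the centromeric histone, and Mki67, the proliferation marker, fell by 0.99 ± 0.17 and 0.98 ± 0.17 (limma adjusted p = 0.0016 and 0.0019). Those that rose included the replication genes Mcm2, Mcm3 and Mcm7, the cyclin E gene Ccne2 and E2f1, with Mcm2 at 417.2 and 534.4 against 930.6 and 783.5 normalized counts (0.85 ± 0.14, limma adjusted p = 0.00136). In the interaction 4 of the 30 were higher (13.3%, against 5.3% of all tested genes), Ccnb2, Foxm1, Cenpa and Mki67. None was lower, against 3.92% of all tested genes.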

How the data were processed

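Sample groups follow the sample titles, and table columns were matched to samples by the label's description field. The deposited signal holds read counts scaled by a size factor for each library: undoing that scaling gave whole reads (within 1e-06) for 100% of values. The authors' deposited table also gives log2 fold changes, test statistics (score) and adjusted p-values, per the file headers, which were used for counts and calls only. Bowtie2, SAMtools, FastQC, MACS2 and mm10 are named without roles or versions, per the submitters' processing notes; the counting step and its annotation are not given in those sources.

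The 35 members, their grouping and the further lists were chosen with earlier results of these data known. limma 3.58.1 (R 4.3.3), with its trend option, was fitted to log2(normalized count + 1) of all 8 libraries in 4 groups without a block, leaving 4 residual degrees of freedom. Benjamini-Hochberg adjustment ran over all 22575 tested genes in each of 5 contrasts. Fold changes on this scale understate low genes. The script was tested on simulated data. Named genes are all members, up to 4 genes with the smallest p in the GFP response from each further list, and those that a count of 5 or fewer refers to; the damage kinases, Mcl1, the single markers and the cell cycle genes beyond these were named after their values were seen. Alternatives were a pseudocount of 0.5 or 5, other filters, library totals, a replicate block, only the 4 libraries compared, each library left out, and edgeR 4.0.16 and DESeq2 1.42.0 on the recovered reads. Intervals are limma's 95% intervals. Gene coordinates and exon lengths are from GENCODE M21 (GRCm38), promoter sequences from RefSeq (GRCm38.p6). The RNA immunoprecipitation libraries named in the series design were not analysed here. Some genes of the further lists enter the counts but are not reported here by name.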

Additional observations from a re-analysis of the deposited data

Results flagged for a closer look

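The response to osteogenic medium differed between THOC5 and GFP cells, by the interaction test of limma over all tested genes, for 9 of the 35 genes. The response in THOC5 cells minus that in GFP cells was -1.748 log2 units for Pmaip1, -1.726 for Gadd45a, -1.356 for Plk2, -1.143 for Mdm2 and -0.787 for Aen. It was -0.731 for Tigar, -0.727 for Trp53inp1, -0.681 for Tnfrsf10b and -0.508 for Ei24. Adjusted p-values ran from 0.000489 for Pmaip1 to 0.0395 for Trp53inp1. The GFP osteogenic libraries enter every one of these differences, and the summed levels of the smooth muscle and fibroblast markers, led by Acta2 and Dcn, were lower in those libraries, though Des, Myocd and Cd34 were not; their part in the result was not tested. Groups of 2 libraries allow no test for a library far from its group.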

How the results depend on the processing

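No change of direction occurred among the called members under any alternative. In the GFP response the 18 higher members became 11 to 19 when 1 library was left out, and the 2 lower became 0 to 2. The lower count was 0 with any value above 0 as the filter, 0 with library totals, 0 with only the 4 libraries compared and 1 with the replicate block. For THOC5 against GFP in osteogenic medium the 20 lower became 10 to 20 when 1 library was left out and the 1 higher became 0 to 2. That 1 became 2 with a pseudocount of 5, 2 with at least 10 in 2 libraries, 2 with edgeR, and 0 with any value above 0, with library totals or with only the 4 libraries. In the interaction the 9 lower became 3 to 8 when 1 library was left out, and 5 with any value above 0 as the filter. These settings also differ in the number of libraries or of genes tested, and the cause of the changed counts was not tested. Over all tested genes the lower calls in the interaction also moved. They were 885 in the main fit, 423 with any value above 0 as the filter and 1381 with library totals. They were fewer than 885 whichever single library was left out, so a loss of calls was not particular to the members. No interaction can be fitted with only the 4 libraries of a response.

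Replicate numbers are shared between groups, but the labels name no shared source. The correlation of replicate 1 minus replicate 2 between groups ran from -0.12 to 0.246 over 13253 genes, the highest between the GFP and THOC5 growth groups. With no shared source in the labels the numbers were not taken as pairs. With the replicate block 19 members were higher and 1 lower in the GFP response, 21 lower and 1 higher for THOC5 against GFP in osteogenic medium, and 11 lower in the interaction, Gdf15 among them (adjusted p = 0.00802). Over all genes the GFP response gave 2314 higher calls, and 925 to 3720 over the alternatives.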
